A study of Mus musculus with 4 samples.

Results

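The cells described here are the pancreatic beta cells of one Atf4 mutant islet pool, mutant 2, in which Atf4 transcripts were still counted. A barcode, the droplet label that stands for a cell, was taken as a beta cell when it held more than 8000 unique molecular identifiers (UMIs, counts of single transcripts), less than 20% mitochondrial UMIs, at least 15% of its UMIs from Ins1 and Ins2, and less than 0.5% from each of Gcg, Sst and Ppy. Of the 447 beta barcodes of mutant 2, 136 had at least 3 Atf4 UMIs and are called the Atf4-positive beta barcodes. They are 136 of the 2597 barcodes of that pool and of the 11114 barcodes in all 4 matrices. The Atf4 counts chose these barcodes, so their Atf4 level is a description and not a finding.

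Islets of 2-month-old mice were dissociated and sequenced by an inDrops droplet method. Mutants 1 and 2 carried floxed Atf4 alleles and the Cre driver Ins1Cre (Atf4F/F; Ins1Cre), and controls 1 and 2 carried the same floxed alleles without Cre (Atf4F/F). No treatment was given. The 4 libraries were pools. The design text gives 2 males and 2 females per pool, and the protocol gives 3 to 4 mice. Cells were not sorted on the tdT reporter, and 10% human K562 cells, an established leukaemia line, were mixed in. No label ties a barcode to an animal, so the 136 barcodes are not replicates. The p-values below use the spread between mutant pools without Atf4 and between controls, as the Atf4-positive barcodes are 1 pool. Total UMIs ran from 13706563 to 17655893 per library. The libraries shared 41 to 82 barcode sequences pairwise, and 1, 3 and 4 of the 136 sequences also occurred in mutant 1, control 1 and control 2.

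The protein ATF4 is the main transcriptional arm of the integrated stress response. Kinases that sense amino acid shortage, unfolded protein, haem shortage or double-stranded RNA phosphorylate the initiation factor eIF2, which lowers general translation but favours translation of the Atf4 transcript. ATF4 with C/EBP partners then activates genes for amino acid uptake, amino acid synthesis, one-carbon metabolism and the charging of tRNAs. Beta cells translate insulin at a high rate and use this pathway to adjust protein synthesis. Ins1Cre is driven from the insulin 1 locus and directs recombination to beta cells.

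Atf4 (chromosome 15, 80255184 to 80257541, plus strand, GRCm38) was counted in the pool in a graded way. In mutant 2, 227 of 447 beta barcodes had no Atf4 UMI, 43 had 1, 41 had 2 and 136 had 3 or more, which is 30.4% of the beta barcodes (exact Clopper-Pearson interval 26.2 to 34.9%, counting error only). In mutant 1, 376 of 385 beta barcodes had none and 1 had at least 3. In control 1, 399 of 504 had at least 3 (79.2%), and in control 2, 407 of 510 (79.8%). The 136 barcodes held 769 Atf4 UMIs. Per barcode their Atf4 level ran from 110 to 855 UMIs per 1e+06 UMIs (CPM), with a median of 291 CPM. Control barcodes chosen by the same minimum of 3 had medians of 376 and 405 CPM. Just outside the threshold, the 41 barcodes with 2 UMIs summed to 145 CPM, and just inside it the 38 barcodes with exactly 3 summed to 203 CPM.

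**Figure D1:**
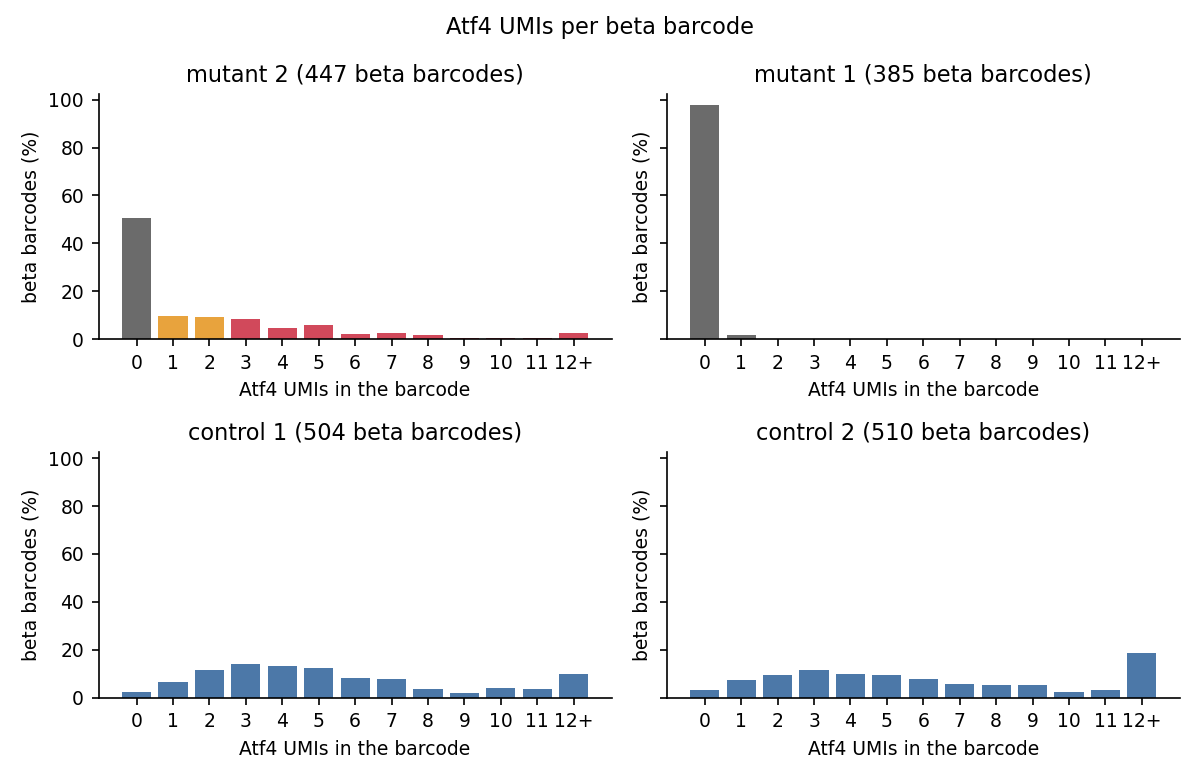
Share of beta barcodes (y axis, %) by the number of Atf4 UMIs in the barcode (x axis), 1 panel per library. In mutant 2 the red bars are the 136 Atf4-positive barcodes, the orange bars the 84 with 1 or 2 UMIs and the grey bar the 227 with none; mutant 1 is nearly all at 0, and the controls in blue spread over all counts.

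The barcodes carried markers of mature beta cells, of which Pdx1, Slc2a2 and Ucn3 are given. Pdx1, a master regulator of beta cells, stood at 220 CPM in the Atf4-positive barcodes and at 194 and 216 CPM in controls 1 and 2. Levels from here on are CPM after TMM scaling, an edgeR correction for differences in library composition, unless called unscaled. Slc2a2, the glucose transporter GLUT2, stood at 764 CPM against 811 and 797 CPM, and Ucn3, a marker of mature beta cells, at 1042 CPM against 1272 and 1404 CPM. Mafa, another defining beta cell factor, had no UMI in the Atf4-positive barcodes or in either control, and so says nothing on identity. Of 33 tested genes of a beta identity list, none passed the test against the barcodes without Atf4 and 1, Nnat, was lower than in the controls. Over all genes 0.241% and 0.139% were called in these comparisons, so a list of this size would hold few or no calls. Within the pool 12 of the 33 were higher and 21 lower, where 50.5% of all genes were higher (median log2 −0.03). Depth differed between the sets. The Atf4-positive barcodes had a median of 18021 UMIs, the 227 barcodes of the same pool without Atf4 15159, mutant 1 barcodes without Atf4 16660, and the controls 13914 and 15386.

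The Atf4-positive barcodes came mostly from cells with Y chromosome transcripts. Of the 136, 114 held UMIs of Ddx3y, Eif2s3y, Kdm5d or Uty and none of Xist, the RNA of the inactive X chromosome, which is 83.8% (Clopper-Pearson interval 76.5 to 89.6%). A further 2 held Xist alone, 10 held both and 10 held neither. In the same pool, 64 of the 227 barcodes without Atf4 were of the Y-linked class (28.2%, 22.4 to 34.5%) and 94 of the Xist class. Shares of the Y-linked class in mutant 1, control 1 and control 2 were 34.5, 35.3 and 36.7%. After every barcode was thinned to 8000 UMIs, the shares within mutant 2 were 66.2% and 19.8%. The 84 barcodes with 1 or 2 Atf4 UMIs lay between, at 63.1% before thinning. How many of the animals contributed cannot be told from these matrices.

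**Figure D2:**
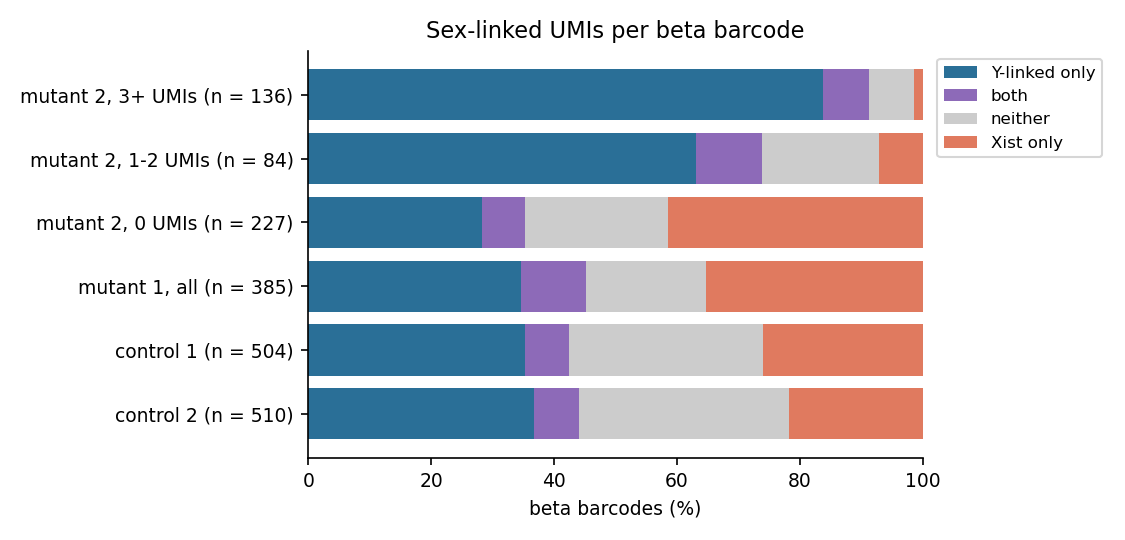
Shares of beta barcodes (x axis, %) with UMIs of Y-linked genes only, of Xist only, of both or of neither, for 3 classes of Atf4 count in mutant 2 and for the other libraries, with the number of barcodes beside each bar. The Y-linked class makes up 83.8% of the Atf4-positive barcodes and 28.2% of those without Atf4.

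The Atf4-positive barcodes differed from barcodes without Atf4 in 33 genes. This comparison asks which genes separate beta barcodes with at least 3 Atf4 UMIs from those in which none was counted. A count of 0 does not prove loss, as 2.58% and 3.14% of beta barcodes in controls 1 and 2 had none. Within mutant 2 the 2 sides also differed in the Y-linked class, at 83.8% and 28.2%, so the comparison is not of Atf4 alone. UMIs were summed over the Atf4-positive barcodes, over the barcodes without Atf4 in each mutant pool and over each control, and the 5 sums were fitted together with edgeR's quasi-likelihood test. Of the 2 sums without Atf4, 1 came from the same pool as the Atf4-positive barcodes, and the fit took all sums as independent. Of 13701 genes tested, leaving out the genes of the selection rule, 20 rose and 13 fell (0.146% and 0.0949% of genes, 0.241% in all, at a Benjamini-Hochberg adjusted p under 0.05, against 1358 at an unadjusted p under 0.05). The Atf4-positive arm is a single sum that was assumed to vary like the replicated arms, and the count depends on the other sums, with 5 genes called without mutant 1, 101 without control 1 and 99 without control 2. The 5 kept without mutant 1 were Atf5, Nupr1, Mthfd2, Cacna1i and Ccng1.

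Of 21 tested regulators and effectors of the integrated stress response, 5 rose and none fell. Over all tested genes 0.146% rose and 0.0949% fell. Atf5 (chromosome 7, 44812256 to 44816658, minus strand), a transcription factor related to ATF4, stood at 456 CPM in the Atf4-positive barcodes, 66.9 CPM in the barcodes without Atf4 of the same pool, 36.7 CPM in those of mutant 1, and 561 and 620 CPM in controls 1 and 2. The Atf4-positive value lay far above both sums without Atf4 and below both controls. Within the pool the ratio was 6.81 (interval 5.95 to 7.83, counting error only), and the log2 difference from the barcodes without Atf4 was 3.16 ± 0.261 (SE, 1 sum against 2, edgeR adjusted p = 0.00107). Nupr1 (chromosome 7, 126623249 to 126630861, minus strand), a small stress-induced chromatin protein, stood at 62.5 CPM, against 3.14 and 0.276 CPM without Atf4 and 41.9 and 53.04 CPM in the controls. It was counted in 44 of 136 Atf4-positive barcodes and 5 of 227 without Atf4, a ratio of levels of 19.9 (11.1 to 39.4) and an edgeR adjusted p of 0.00138. DESeq2 did not call it (adjusted p = 0.153), and in barcodes of the Y-linked class alone its log2 ratio within the pool was 2.59, against 4.32 in all. Its Atf4-positive level was above that of both controls, by a log2 difference of 0.39 ± 0.334 that did not pass (edgeR adjusted p = 0.655).

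Feedback genes of the pathway were among the 5. Chac1, an enzyme that degrades glutathione, stood at 23.1 CPM against 2.09 and 1.10 CPM without Atf4 and 26.6 and 34.8 CPM in the controls (edgeR adjusted p = 0.00209). Trib3, a pseudokinase that restrains the response, stood at 11.5 CPM, with no UMI in the 227 barcodes without Atf4 of the pool and 0.414 CPM in mutant 1. With that sum set to a floor of 3 UMIs the ratio of Trib3 was 14.7, and the exact lower limit of its ratio was 11.3, counting error only. Its rise passed (edgeR adjusted p = 0.00736), and the controls had 10.9 and 14.2 CPM. Eif4ebp1, which holds back cap-dependent translation, rose from 4.97 and 4.14 CPM to 18.6 CPM (edgeR adjusted p = 0.0292, and 0.0554 after thinning). Of the 21 regulators and effectors, 15 were higher within the pool, against 50.5% of all genes, with a median log2 difference of 0.44 against 0.01 over all genes. Several classical members did not pass: Ddit3, the factor CHOP, stood at 51.7 CPM against 43.4 and 37.7 CPM without Atf4, Atf3 at 5.58 against 3.92 and 3.59 CPM, and Sesn2 at 35.7 against 43.7 and 33.1 CPM.

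Of 19 tested genes of amino acid synthesis and one-carbon metabolism, 3 rose and none fell, where 0.146% of all genes rose. Mthfd2 (chromosome 6, 83305691 to 83325908, minus strand), a mitochondrial folate enzyme, stood at 64.4 CPM, against 12.02 CPM in the barcodes without Atf4 of the pool, a like level in those of mutant 1, and 71.8 and 75.1 CPM in the controls. Its log2 difference from the barcodes without Atf4 was 2.42 ± 0.174 (SE, edgeR adjusted p = 0.000572), the lowest adjusted p among the 33 called genes. Psat1, which makes serine, stood at 13.4 CPM against 0.784 and 0.690 CPM without Atf4 and 11.2 and 10.9 CPM in the controls. Aldh1l2, another mitochondrial folate enzyme, stood at 9.30 CPM against 1.05 and 0.414 CPM, above its 5.73 and 4.81 CPM in the controls. Within the pool 14 of the 19 were higher, against 50.5% of all genes (median log2 0.37). The Aldh1l2 call was lost after thinning and in the Y-linked class (edgeR adjusted p = 0.241 and 0.190). Asns, asparagine synthetase, stood at 81.1 CPM against 44.4 and 33.1 CPM without Atf4 and 100 and 107 CPM in the controls, with an edgeR adjusted p of 0.0784.

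Amino acid carriers and aminoacyl-tRNA synthetases, which charge tRNAs, moved in part. Slc7a5, a carrier of large neutral amino acids, rose to 48.8 CPM from 22.0 and 16.8 CPM, and Slc1a4, a carrier of alanine and serine, to 9.68 from 1.31 and 0.414 CPM. Of 15 carriers these 2 rose and none fell, where 0.146% of all genes rose. Neither carrier was called in the Y-linked class. Within the pool 10 of the 15 were higher, against 50.5% of all genes (median log2 0.22, and −0.09 in the Y-linked class). Among 20 cytosolic synthetases Sars and Aars rose, none fell, and 14 were higher within the pool, against 50.5% of all genes (median log2 0.32). Aars was not called in the Y-linked class or after thinning. Sars, for serine, stood at 82.2 CPM against 35.3 and 38.4 CPM without Atf4, and at 79.6 and 89.7 CPM in the controls, so that its Atf4-positive value fell between them. Yars, for tyrosine, stood at 53.2 CPM against 25.4 CPM in each sum without Atf4 and did not pass (edgeR adjusted p = 0.0618). Grb10, an adaptor that restrains insulin receptor signalling, is outside these lists and rose to 38.7 from 12.02 and 7.87 CPM, next to 38.3 and 32.2 CPM in the controls.

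**Figure D3:**
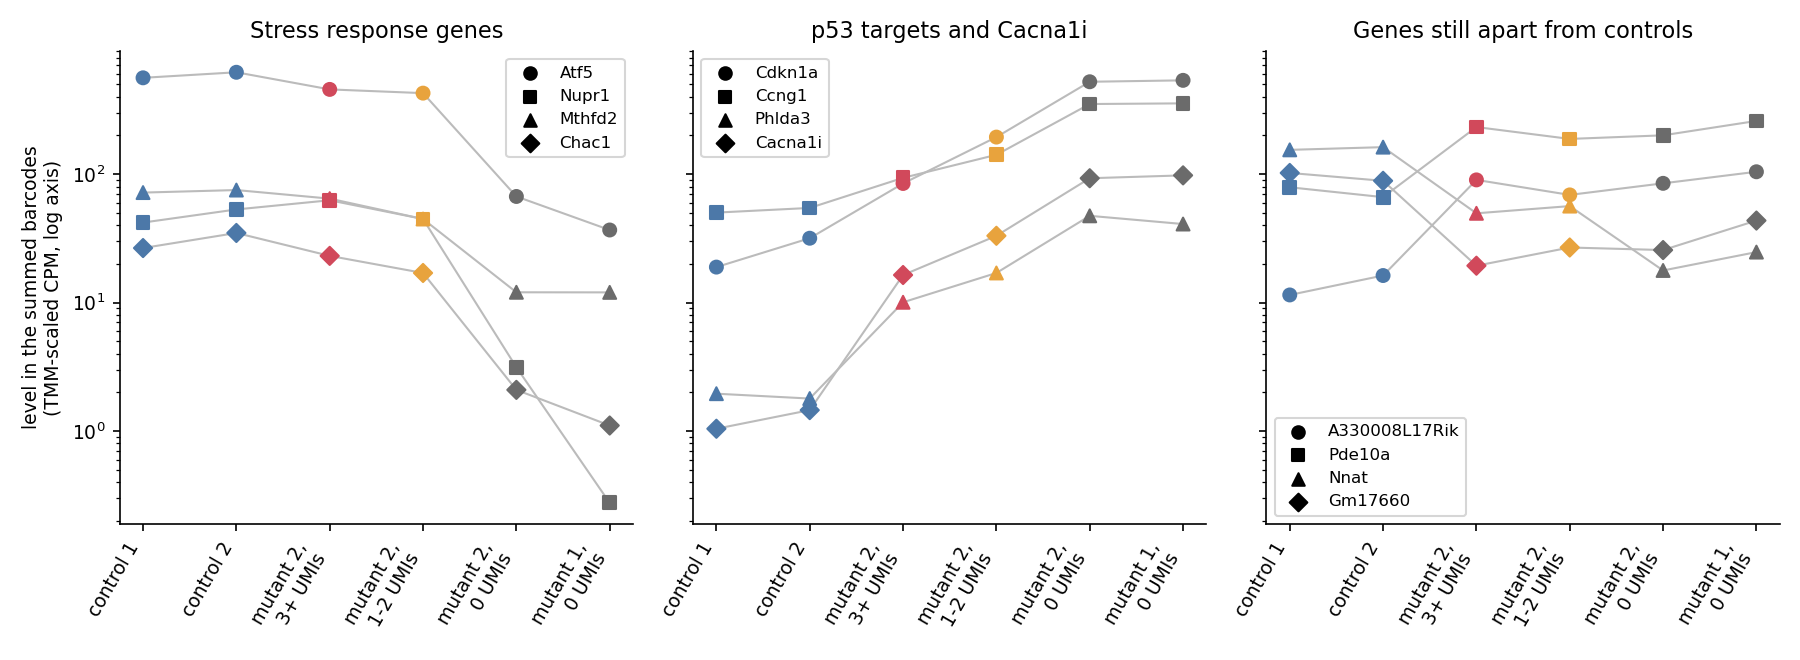
Levels (y axis, TMM-scaled CPM, log axis) of 12 genes in 6 sums of beta barcodes (x axis): both controls in blue, the Atf4-positive barcodes of mutant 2 in red, those with 1 or 2 Atf4 UMIs in orange, and those without Atf4 of either mutant in grey, with lines that join the values of a gene. Stress response genes of the red sum lie near the controls, Cdkn1a, Phlda3 and Cacna1i lie between the controls and the sums without Atf4, and A330008L17Rik and Pde10a lie with the mutant sums.

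Promoters of the called genes were searched for the C/EBP-ATF response element. The element is a composite site bound by C/EBP and ATF proteins, and the letters TGATGNAA were searched on both strands from 250 bases before to 50 after each RefSeq gene start (GRCm38.p6). Of 27025 genes in the table, 1219 held a match (4.51%). Of the 20 genes that rose, 15 were in the table and 6 held a match: Aars, Apoe, Chac1, Nupr1, Slc1a4 and Trib3. For Apoe, 1 barcode held 53.9% of the UMIs, and its call was lost without the 4 barcodes rich in a single gene, given below. Of the 13 that fell, 9 were in the table and none held a match. A match describes letters and not a bound site, and no match says only that the letters are not in this window. The 250 bases before the start of Nupr1 (chr7:126625471-126625720, minus strand), Chac1 (chr2:119350992-119351241, plus strand) and Aars (chr8:111033592-111033841, plus strand) are printed 5′ to 3′, as 3 genes of different role whose match lies before the start. Capitals mark the match, which in each lies on the reverse strand and begins 110, 193 and 112 bases before the start.
Nupr1: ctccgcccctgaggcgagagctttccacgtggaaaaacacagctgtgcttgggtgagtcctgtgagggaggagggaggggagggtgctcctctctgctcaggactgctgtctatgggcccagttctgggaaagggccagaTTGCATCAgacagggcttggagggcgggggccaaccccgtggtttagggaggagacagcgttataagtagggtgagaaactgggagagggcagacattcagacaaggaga
Chac1: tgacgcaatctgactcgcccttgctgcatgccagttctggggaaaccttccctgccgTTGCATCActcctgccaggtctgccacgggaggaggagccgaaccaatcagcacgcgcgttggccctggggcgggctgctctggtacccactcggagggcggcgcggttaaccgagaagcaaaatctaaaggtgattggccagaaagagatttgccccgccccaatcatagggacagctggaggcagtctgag
Aars: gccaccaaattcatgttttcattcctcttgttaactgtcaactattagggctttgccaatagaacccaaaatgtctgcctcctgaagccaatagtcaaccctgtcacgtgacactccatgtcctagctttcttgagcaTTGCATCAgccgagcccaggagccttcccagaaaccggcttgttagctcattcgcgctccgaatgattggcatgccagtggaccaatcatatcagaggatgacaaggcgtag
All 3 matches read the same 8 letters. Aars held another match, 9 bases after its start.

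Of 27 tested targets of p53, the transcription factor that responds to DNA damage and other stress, 5 fell in the Atf4-positive barcodes and none rose. Among all tested genes 0.0949% fell and 0.146% rose. Cdkn1a (chromosome 17, 29090976 to 29100727, plus strand), the cell cycle inhibitor p21, stood at 84.5 CPM, against 523 and 536 CPM in the sums without Atf4 and 18.9 and 31.7 CPM in the controls. The Atf4-positive value was 6.19-fold lower than in the same pool without Atf4 (5.39 to 7.13, counting error only), with a log2 difference from both mutant sums of −2.65 ± 0.271 (SE, edgeR adjusted p = 0.00306). It also stayed above both controls, by a log2 difference of 1.73 ± 0.250 (SE, edgeR adjusted p = 0.0374). Ccng1, cyclin G1, stood at 93.4 CPM against 351 and 355 CPM without Atf4 and 50.1 and 54.5 CPM in the controls. Its fall passed (edgeR adjusted p = 0.00115), and its gap to the controls did not (edgeR adjusted p = 0.0933). Phlda3, an inhibitor of AKT signalling, stood at 10.1 CPM against 47.3 and 40.8 CPM, and above the controls with 1.95 and 1.79 CPM (edgeR adjusted p = 0.0372). Zmat3 and the pro-apoptotic Bax fell to 45.4 and 59.2 CPM, next to control values of 34.9 and 34.1 CPM for Zmat3 and 56.5 and 61.0 CPM for Bax.

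Of the 27 p53 targets, 23 were lower within the pool (median log2 −0.89), against 6777 of all 13701 genes. After thinning, Phlda3 and Zmat3 no longer passed against the barcodes without Atf4 (edgeR adjusted p = 0.109 and 0.105). Against the controls 2 of the 27, Cdkn1a and Phlda3, remained higher, where 19 of all 13701 genes were called (0.139%), 15 of them higher (0.109%). In the barcodes without Atf4 of both mutants, 14 of the 27 were higher than in the controls and none was lower (1.05% and 0.985% of all genes, 2.04% together). Neither call was firm. Against control barcodes chosen by the same 3 Atf4 UMIs the edgeR adjusted p was 0.0551 for Cdkn1a and 0.0514 for Phlda3, and after thinning to 8000 UMIs it was 0.0864 and 0.0938. Both calls were also lost without mutant 1 and without the 10 Atf4-positive barcodes that held both Xist and Y-linked UMIs. Phlda3 was lost in the Y-linked class as well. Those 10 barcodes had a median of 25290 UMIs and an unscaled Cdkn1a level of 165 CPM, against 73.7 CPM in the 114 of the Y-linked class; their part in the result was otherwise not tested.

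Cacna1i, a T-type calcium channel gene that lies 29.7 kb downstream of Atf4 (chromosome 15, 80287238 to 80398279, plus strand), fell with the p53 targets. It stood at 16.4 CPM in the Atf4-positive barcodes, 92.8 and 97.7 CPM without Atf4, and 1.04 and 1.46 CPM in the controls. The Atf4-positive value lay below both mutant sums (log2 difference −2.54 ± 0.207, edgeR adjusted p = 0.00107) and above both controls (3.68 ± 0.306, edgeR adjusted p = 0.00232). Of the 136 barcodes, 21 held a Cacna1i UMI (15.4%, interval 9.82 to 22.6%), against 144 of 227 without Atf4 (63.4%). In the controls, where the gene is nearly silent, 1.59% and 2.55% of barcodes held one. Thinned to 8000 UMIs per barcode, the shares were 6.62% and 42.7% within the pool and 0.397% and 0.784% in the controls. Against the barcodes without Atf4, Cacna1i was the sole gene called among 16 tested genes around Atf4, where 0.241% of all genes were called. The gene beside Atf4, Rps19bp1, stood at 6.33 CPM against 3.92 and 0.414 CPM without Atf4 and 5.73 and 7.497 CPM in the controls, and was not called.

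The 21 Atf4-positive barcodes with Cacna1i differed from the other 115. Their median depth was 25440 UMIs against 15600, and 5 of them held both Xist and Y-linked UMIs, also against 5 of the 115. In unscaled CPM, their summed Atf4 level was 211 against 318 CPM, Cdkn1a 179 against 58.9 CPM and Ccng1 191 against 67.2 CPM. Cdkn1a in the 115 still exceeded the unscaled 17.7 and 30.9 CPM of the controls. Atf5 was nearly as high in the 21 as in the 115, at 418 and 481 CPM. The 2 sets were split by a measured gene after the values were seen, so these levels are a description, and the part that depth or mixed droplets play was not tested.

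Cdkn1a shifted mostly below the threshold of 3 Atf4 UMIs. In unscaled CPM, Cdkn1a stood at 524 in barcodes with 0 Atf4 UMIs, 240 with 1, 126 with 2, 85.3 with 3, 66.0 with 4 to 5 and 102 with 6 or more. The 2 highest classes have exact Poisson intervals of 50.1 to 85.3 and 84.8 to 122 CPM that overlap slightly, so no order among the Atf4-positive classes is read from them. Atf5 stood at 67.1, 305, 517, 290, 431 and 577 CPM over the same classes. It did not follow the Atf4 count step by step, as barcodes with 2 UMIs exceeded those with 3. Mthfd2 stood at 12.1, 37.9, 47.8, 35.6, 54.6 and 88.7 CPM, highest in the class with the most Atf4. A330008L17Rik, a long non-coding RNA gene, showed no such gradient, with 85.0, 70.8, 60.2, 78.2, 91.0 and 99.7 CPM. Median depth rose from 14030 to 21880 UMIs over the 3 Atf4-positive classes.

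**Figure D4:**
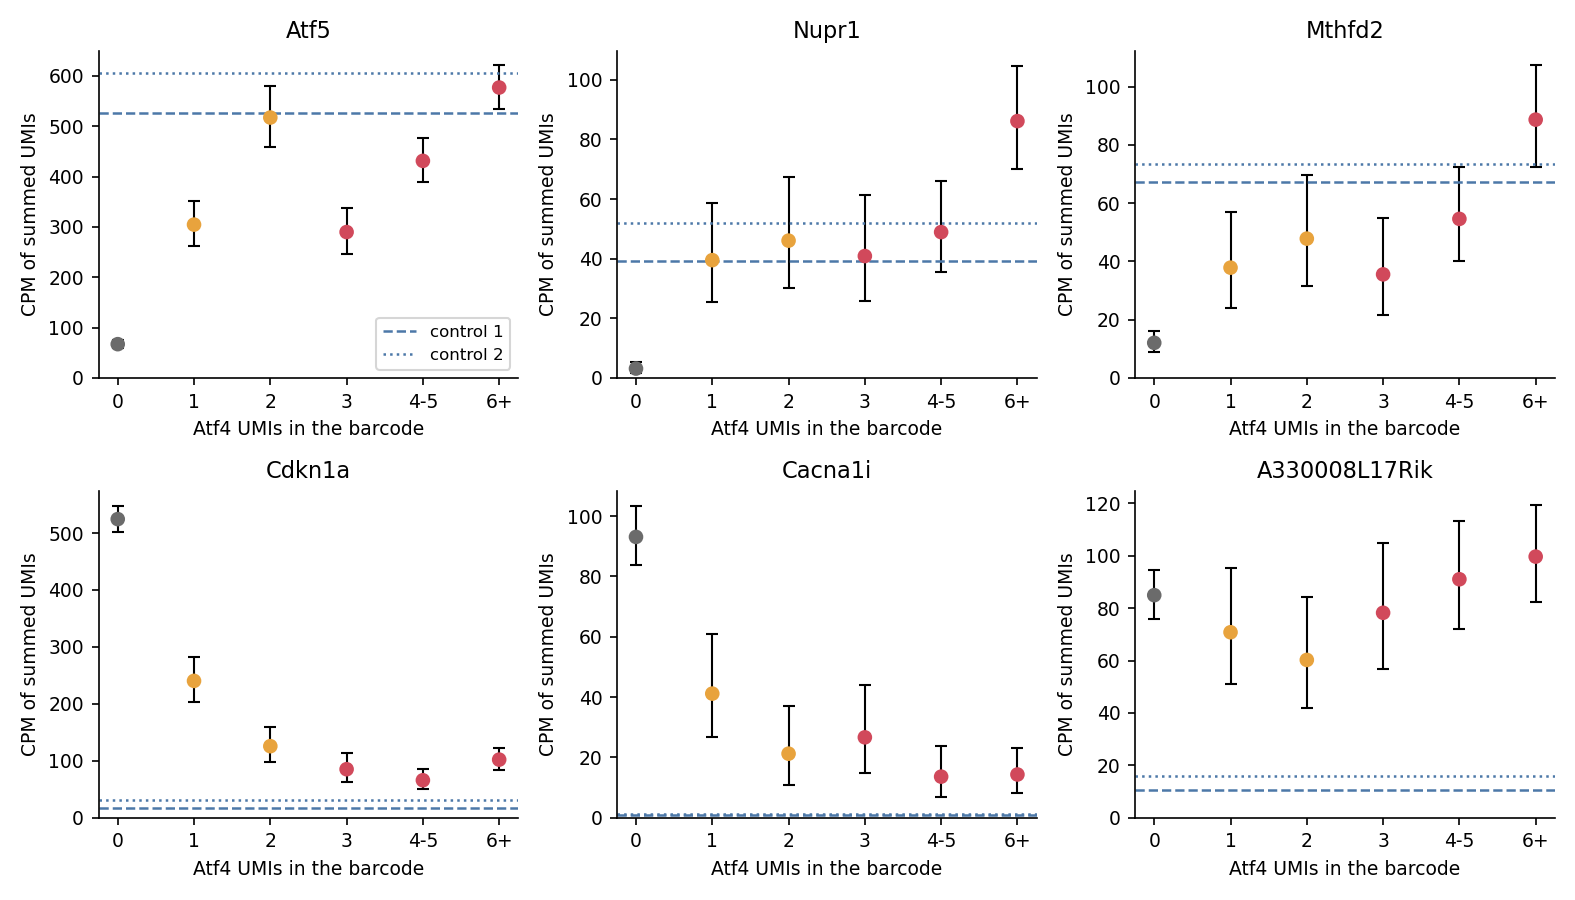
Unscaled CPM of summed UMIs (y axis, from 0) for 6 genes by the number of Atf4 UMIs in a mutant 2 beta barcode (x axis), with exact 95% Poisson intervals for counting error; dashed and dotted blue lines give controls 1 and 2. Cdkn1a and Cacna1i drop between 0 and 2 Atf4 UMIs but stay above the controls, Atf5, Nupr1 and Mthfd2 reach the control range, and A330008L17Rik stays at 60.2 to 99.7 CPM.

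Atf5, Mthfd2 and Cdkn1a differed within the Y-linked class as well. The 114 Atf4-positive and 64 Atf4-free barcodes of this class had unscaled Atf5 levels of 471 and 117 CPM, Mthfd2 levels of 64.9 and 16.1 CPM, and Cdkn1a levels of 73.7 and 515 CPM. The Atf4-free Y-linked class was itself above the 94 Atf4-free barcodes of the Xist class in Atf5, at 117 against 48.2 CPM with intervals of 97.1 to 139 and 38.4 to 59.8 CPM. Nupr1 showed the same order, with 11 UMIs in the former and none in the latter. With the fit restricted to the Y-linked class in every sum, 33 genes were again called and 21 of them were shared with the fit of all barcodes. Aars, Aldh1l2, Slc1a4, Slc7a5, Ddit4l and Cish were among those no longer called. Of 95 named genes, 40 had a within-pool log2 ratio in this class outside the counting interval of the ratio over all barcodes, and 2 turned sign. That interval leaves out the counting error of the smaller Y-linked sums, so the 40 do not measure how many genes depend on the class. Atf5 went from 2.77 to 1.97.

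The insulin genes differed in balance. Ins1, the locus of the driver, made up 43.2% of insulin UMIs in the Atf4-positive barcodes and 35.3% without Atf4 in the pool. It made up 35.4% in mutant 1, and 41.6 and 42.8% in the controls. The controls carried no driver at this locus, and the part of the driver in the Ins1 share was not tested. Over classes of 3, 4 to 5 and 6 or more Atf4 UMIs this share was 41.7, 42.6 and 44.7%, against 38.7% and 39.8% in barcodes with 1 and 2, while depth rose too. UMIs of 6 bases allow few sequences, so insulin transcripts collide in deep barcodes. Corrected for collisions, the share was 35.2% in the Atf4-positive barcodes, 31.0% in those with 1 or 2 Atf4 UMIs, 24.98% in those without Atf4, 24.4% in mutant 1, and 34.6 and 35.3% in the controls. Ins1 stood at 129900 CPM, against 107500 and 95100 CPM without Atf4 and 144200 and 140100 CPM in the controls. The sum of both insulin genes entered the selection, so their levels are given with no test. Ins2 stood at 170700 CPM, below 196800 and 173600 CPM without Atf4 and 202200 and 186800 CPM in the controls.

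Genes chosen without mutant 2 gave an independent reading. At a mean of at least 30 CPM, 20 genes were at least 2-fold lower in all beta barcodes of mutant 1 than in each control (0.438% of 4565 genes), and 18 were at least 2-fold higher (0.394%). Of the 20, 17 were higher in the Atf4-positive barcodes than in barcodes without Atf4 within mutant 2, where 46.1% of all genes were higher, and 9 were higher by over 2-fold, where 0.329% of all genes were. Their median log2 difference was 0.92. Of the 18, 12 were lower, where 53.9% of all genes were lower, and 5 were lower by over 2-fold, where 0.35% were. Their median was −0.59. In all, 29 of 38 genes, 76.3%, lay toward the controls. The 38 include D030068K23Rik, Hfm1 and Gm7808, which differed between libraries, with log2 differences of 0.0004, −0.043 and −0.118. D030068K23Rik thus counts among the 17, and Gm7808 among the 12, with almost no difference. One pool supplies both sides of the within-pool reading, so it has no test.

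**Figure D5:**
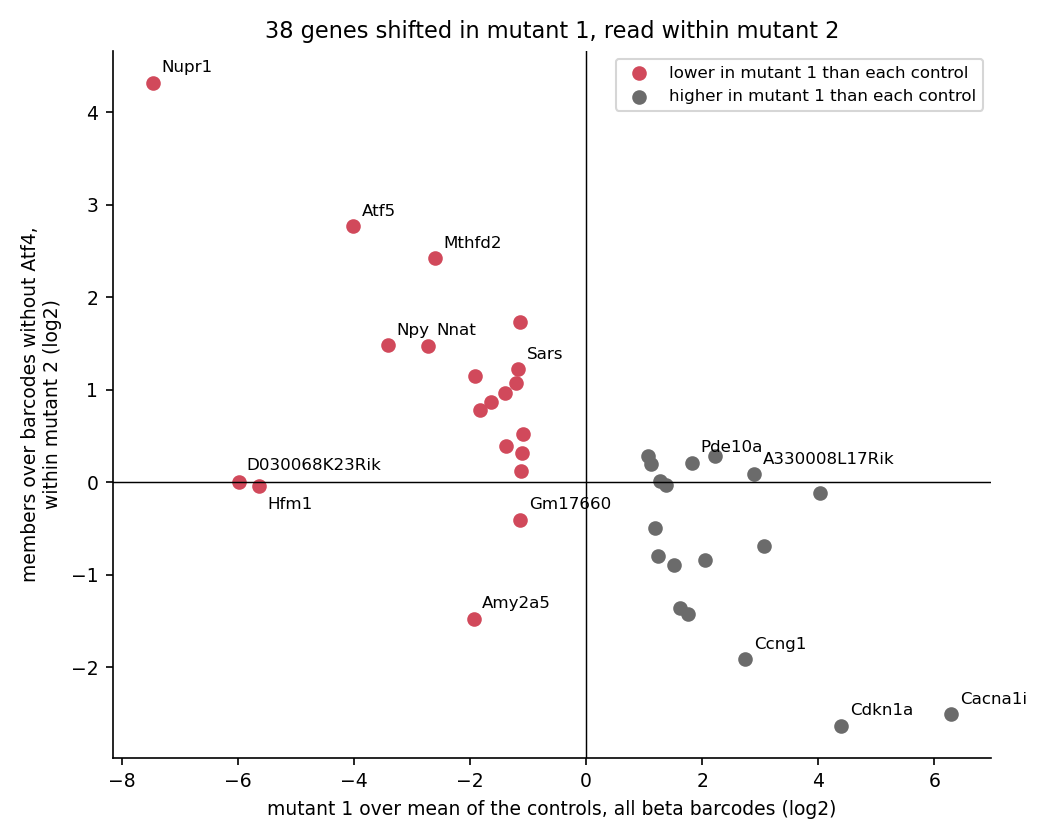
Log2 ratio of mutant 1 to the mean of the controls over all beta barcodes (x axis) against the log2 ratio of Atf4-positive barcodes to barcodes without Atf4 within mutant 2 (y axis) for the 38 genes shifted in mutant 1. Of the genes on the left 17 of 20 lie above 0, led by Nupr1, Atf5 and Mthfd2, and of those on the right 12 of 18 lie below 0, while A330008L17Rik, Pde10a, Hfm1 and D030068K23Rik lie near 0.

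Against the controls, 15 genes were higher and 4 lower in the Atf4-positive barcodes (0.109% and 0.0292% of those tested), with 1630 at an unadjusted p under 0.05. A330008L17Rik (chromosome 8, 99416642 to 99733438, plus strand) stood at 90.1 CPM, next to 84.7 and 104 CPM without Atf4 and above 11.5 and 16.2 CPM in the controls. The Atf4-positive value lay between the 2 mutant sums, and its log2 difference from the controls was 2.69 ± 0.218 (SE, 1 sum against 2, edgeR adjusted p = 0.00232). It was counted in 102 of the 136 barcodes, so it was not the product of a few. Pde10a (chromosome 17, 8525372 to 8986648, plus strand), a phosphodiesterase of cyclic nucleotides, stood at 232 CPM, next to 200 and 259 CPM without Atf4 and above 78.9 and 66.1 CPM in the controls (edgeR adjusted p = 0.0167).

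Gm17660 and Nnat were lower than in the controls. Gm17660 stood at 19.4 CPM, against 25.6 and 43.5 CPM without Atf4 and 102 and 88.6 CPM in the controls (edgeR adjusted p = 0.0350 against the controls). Nnat (chromosome 2, 157560078 to 157562522, plus strand), an imprinted gene whose product aids insulin processing, lay between, at 49.5 CPM against 17.8 and 24.7 CPM without Atf4 and 154 and 162 CPM in the controls. Its gap to the controls passed (edgeR adjusted p = 0.0192) and its gap to the barcodes without Atf4 did not (0.0776). Both genes, with A330008L17Rik, Pde10a, Cacna1i and the acinar amylase Amy2a5, were still called without mutant 1. Nnat was lost in the Y-linked class (edgeR adjusted p = 0.151), Gm17660 at a minimum of 5 Atf4 UMIs (0.0563) and Amy2a5 after thinning (0.0610). The acinar markers as a whole summed to 44.3 CPM in the Atf4-positive barcodes and to 171 and 262 CPM in the controls. The part of this difference in the amylase values was not tested.

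A further group was higher in the Atf4-positive barcodes than in every other sum. Phactr1, a regulator of phosphatase and actin, stood at 2098 CPM, against 1311 and 1160 CPM without Atf4 and 1011 and 866 CPM in the controls (edgeR adjusted p = 0.0192 against the controls). Trpm3, a calcium-permeable channel, stood at 677 CPM against 340, 308, 335 and 252 CPM, and passed against the controls (edgeR adjusted p = 0.0374). Ror1, Sgcd, Mitf and Ppp1r12b were also highest in the Atf4-positive sum. After thinning, Sgcd and Mitf were no longer called against the controls. Sgcd was also lost at a minimum of 5 Atf4 UMIs, and Sgcd and Trpm3 against control barcodes with at least 3 Atf4 UMIs. Trpm3, Ror1, Mitf and Ppp1r12b were not called among barcodes of the Y-linked class, and all of this group were lost without mutant 1. The total of 19 called genes became 7 without mutant 1, 206 without control 1 and 96 without control 2.

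With sex-linked genes left out, genes at a mean of at least 30 CPM were ranked by their difference within the pool. The ranking used 2 of the sums that also enter the test of the 5 sums, so passing that test is no independent support. Of the 12 largest rises 6 passed, and of the 12 largest falls 7 did, where 0.241% of all genes passed. The Y-linked Uty, Ddx3y and Eif2s3y (log2 1.82, 1.74 and 1.52) and Xist (−3.07) would otherwise rank among them, and Ddx3y and Xist passed. In all 15 of 4631 genes were over 2-fold higher (0.324%) and 18 over 2-fold lower (0.389%) in the Atf4-positive barcodes. Several of the unpassed genes had controls that differed from each other: Nlgn1, a synaptic adhesion gene, stood at 63.3 CPM against 15.7 CPM within the pool, with 24.97 CPM in mutant 1 and 54.8 and 22.3 CPM in the controls. Acp1 stood at 11.2 CPM against 73.7 CPM, with 51.2 CPM in mutant 1 and 19.8 and 50.0 CPM in the controls. Falls also passed for 9030617O03Rik, 1700120G11Rik, Gucy2c and Ddit4l, whose levels in both controls were below those of the barcodes without Atf4. Cish, an inhibitor of cytokine signalling, fell to 15.6 CPM from 57.0 and 57.3 CPM, below its 46.4 and 37.2 CPM in the controls. Scg2, a secretory granule protein, fell to 4055 CPM from 6583 and 6073 CPM, next to 4057 and 4271 CPM in the controls.

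Some calls rested on single barcodes. In all, 4 of the 136 barcodes held more than 50% of the UMIs of a gene with at least 20. One barcode of 13639 UMIs held 97.3% of the Cd74 UMIs, 97.9% of those of H2-Ab1 and 53.9% of those of Apoe, all genes of macrophages. Another of 20489 UMIs held 92.9% of the Acta2 UMIs, a smooth muscle gene, and a barcode of 40913 UMIs and 17 Atf4 UMIs held 57.9% of the UMIs of Pyy, a peptide of PP cells. The 7 macrophage markers summed to 142 CPM in the Atf4-positive barcodes against 85.7 CPM without Atf4 in the pool and 160 and 148 CPM in the controls. Markers of PP cells summed to 540 against 275 CPM within the pool, of delta cells to 380 against 256 CPM and of endothelial cells to 57.7 against 36.6 CPM. The controls had 531 and 453 CPM for PP cells, 322 and 452 CPM for delta cells and 22.3 and 101 CPM for endothelial cells. All tested markers of these 3 types were higher within the pool (3 of 3, 4 of 4 and 6 of 6), and their part in the other results was not tested. Without these 4 barcodes 24 genes remained called against the barcodes without Atf4, all among the 33. Apoe, Bax, Cd74, Ddx3y, H2-Ab1, Pyy, Scg2 and Trpm3 were lost and Acta2 was too low to be tested, and the stress response, amino acid and p53 genes given above other than Bax were kept.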

How the data were processed

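The deposited matrices hold UMI counts per gene symbol and barcode, made by the authors; per the submitters' processing notes mm10 and Seurat were used, with no version, and the counting steps are not given in the sources used here. Read in Python 3.11.15, barcodes were selected as described and counts were summed per set. The highest values, 4078 to 4093, lie near the number of sequences a UMI of 6 bases allows. No doublet caller was run. The 5 sums were fitted with edgeR 4.0.16 (R 4.3.3, filterByExpr, TMM, quasi-likelihood tests, 2 residual degrees of freedom, adjusted p under 0.05). The SE given with a log2 difference is that difference divided by the square root of the test's F statistic. It draws on a spread shared across genes, with 7.84 prior degrees of freedom, and is not a spread between Atf4-positive pools. The 3 contrasts share sums, so no overlap between them is given. In simulated data of 13337 genes, changes were set only in genes with a mean above 30 CPM, and sums were drawn independently, with no shared pool. At each size 100 genes were changed. The test of Atf4-positive barcodes against barcodes without Atf4 recovered 72% of 2-fold and 100% of 4-fold changes, with 17 unchanged genes called. Against controls it recovered 74% and 100%, with 19 unchanged genes called. In both, unchanged genes made up more of the calls than the 0.05 aimed at, so the threshold was lenient in these simulated data. The recovery does not cover called genes at lower levels, such as Trib3 and Psat1. Intervals are 95% exact ones and cover counting error only.

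Members and gene lists were chosen with earlier results of these data known. Named genes were, without sex-linked genes and genes of the selection rule, the 12 largest rises and 12 largest falls within mutant 2 at a mean of at least 30 CPM, and up to 4 of each list with the largest difference at 10 CPM or more. Genes called in a fit, genes shifted in mutant 1, beta cell markers and stress response genes that did not pass are also named, and were chosen after their values were seen. Positions are from GENCODE on GRCm38. Alternatives were other scalings, filters, DESeq2 1.42.0, thresholds, thinning and left-out pools.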

Additional observations from a re-analysis of the deposited data

How the results depend on the processing

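The count of genes called for Atf4-positive barcodes against controls, 19, was 89 (80 higher, 9 lower) with library totals only, 72 with DESeq2, 411 with no filter on low counts and 7 to 206 with 1 pool left out. Against barcodes without Atf4 the count of 33 was 327 with no filter and 5 to 101 with 1 pool left out. For barcodes without Atf4 against controls the count of 279 (144 higher, 135 lower) was 380 (275 higher, 105 lower) with library totals only, 939 with no filter, 173 in the Y-linked class and 42 to 417 with 1 pool left out. Library totals moved the median of all genes in that contrast to a log2 of 0.11 from 0.00. A replicate block gave 45, 46 and 364 calls in the 3 contrasts. The deviations of same-numbered sums had a correlation of −0.07 over 5508 genes. With 2 pools per group, this value cannot tell whether same-numbered samples share more than a number.

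The 33 genes past 2-fold within mutant 2 became 52 on totals without insulin and mitochondrial genes, 55 in the Y-linked class and 137 at a mean of 10 CPM. The Ins1 share of 43.2% was 35.2% corrected for collisions, 42.5% at 2 and 44.1% at 5 Atf4 UMIs, 43.5% in the Y-linked class and 44.0% at the highest UMI minimum tried. The share of the Y-linked class was 66.2% after thinning. The share of mutant 1 genes that lay toward the controls stayed within 66.7 to 80.0% over its alternatives. The signs of 2 log2 differences turned in the Y-linked class, Eif2s3y (−0.0169) and Cd74 (−2.67), and those of Cd74 (−2.01), Rgs5 (−0.0134) and Sparc (−0.24) turned without the 4 barcodes rich in a single gene, a setting chosen after seeing the data, as was leaving out barcodes with both Xist and Y-linked UMIs. The causes were not tested, beyond the 4 barcodes named above. With no filter, edgeR gave every gene the common spread. With 1 pool left out, the lone sum was assumed to vary like the other groups.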

Other observations

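Values of further lists, for Atf4-positive barcodes against barcodes without Atf4, follow. With 0.241% of all genes called, lists of these sizes would hold few or no calls, so a count of 0 is no result about a list. Among 62 translation factors Eif4ebp1 rose, and among 30 granule and exocytosis genes Scg2 fell. Of 78 tested ribosomal protein genes, 62 were higher within the pool with a median log2 difference of 0.15, against 50.5% of all genes. Rpl3, a protein of the large ribosomal subunit, stood at 250 CPM against 151 and 164 CPM without Atf4 and 333 and 302 CPM in the controls (edgeR adjusted p = 0.199). Of 29 chaperones and unfolded protein response genes, 20 were lower within the pool, against 6777 of all 13701 genes. Hspa5, the chaperone BiP, was among the 20, at 791 CPM against 1137 and 1254 CPM without Atf4. The controls had 1097 and 723 CPM. Of 15 immediate early genes, which mark recent stimulation or handling, 11 were lower, against the same 6777 of 13701 genes. Fos stood at 518 CPM against 784 and 574 CPM without Atf4 and 843 and 842 CPM in the controls.

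Some genes differed between libraries and not with the Atf4 count. Hfm1 stood at 73.3 CPM in the Atf4-positive barcodes and 75.5 CPM in those without Atf4 of the same pool, but at 1.74 CPM in mutant 1 and at 130 and 43.4 CPM in the controls. D030068K23Rik stood at 124 CPM in each set of mutant 2, at 2.14 CPM in mutant 1 and at 204 and 68.5 CPM in the controls. Gm7808 stood at 92.8 CPM in mutant 1 and at 4.09 to 5.93 CPM in the Atf4-positive barcodes, the barcodes without Atf4 of mutant 2 and both controls.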
